A study of Mus musculus with 6 samples.

Results

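Prostaglandin genes were examined in epithelial cells of the mouse jejunum, the middle segment of the small intestine, after induction of a Musashi transgene. The group comprises the enzymes that make and break down prostaglandin E2 and the receptors that sense it. Its members were chosen by gene symbol from a list of 10, and 9 of the 10 were represented among the 19933 genes measured, each by 1 probe set. The remaining gene, Ptgs1, was not analysed here. By their labels, the 3 mice of the tested genotype, titled transgenic, carried TRE-MSI2 together with R26-M2rtTA. TRE-MSI2 is a tetracycline-responsive transgene for the RNA-binding protein MSI2, and R26-M2rtTA is a doxycycline-dependent transactivator at the Rosa26 locus. The 3 control mice carried R26-M2rtTA without the transgene. Doxycycline was in the drinking water of all 6 animals for 24 hours before total epithelium was taken, so the controls share both the transactivator and the drug. Each mouse gave 1 Affymetrix Gene 1.0 ST array. The Rosa26 locus is active in most cell types, and the labels name no promoter that would limit the transgene to the epithelium.

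Prostaglandin E2 is made in steps. A phospholipase A2 frees arachidonic acid from membrane lipids, a cyclooxygenase turns it into prostaglandin H2, and a terminal synthase makes prostaglandin E2, which leaves the cell, acts on the G protein-coupled receptors EP1 to EP4 of nearby cells, and is then taken up and inactivated by a dehydrogenase and a reductase. In the intestine this lipid is known for its part in epithelial repair after injury, in fluid secretion and in the growth of tumours.

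The receptor gene Ptger4, which encodes EP4, was higher in the arrays labelled transgenic by a factor of 1.98. It was the only one of the 9 genes that passed in the comparison of the 6 arrays by group, made with limma's moderated test with Benjamini-Hochberg adjustment over all genes at a threshold of 0.05. The transcript of the inducible cyclooxygenase Ptgs2 differed by a log2 fold change of 0.07 and did not pass. The breakdown enzymes Hpgd and Ptgr1 had lower means in the arrays labelled transgenic and passed only when the arrays were compared within same-numbered pairs or, for Ptgr1, in 2 further settings. The share of members that passed, 11.1% or 1 of 9, stands beside 18.6% of all genes in the same comparison, and that 1 gene rose while none fell stands beside 8.97% higher and 9.65% lower among all genes. At an unadjusted p under 0.05 there were 2 members, Ptger4 and Ptges, and 6611 of all genes. All fold changes are on the log2 scale, transgenic minus control. In these bulk preparations, fewer cells of a type and less RNA per cell cannot be told apart.

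The arrays had medians between 6.42 and 6.46 on the log2 scale. Msi2 itself had values of 11.23, 10.58 and 11.44 in the arrays labelled transgenic, against 11.30, 9.53 and 9.32 in the controls. Control replicate 1 therefore read like the transgenic arrays, and Msi2 did not pass (log2 fold change 1.03, adjusted p = 0.257 in limma), while without that array it did (1.66, adjusted p = 0.00958). The related gene Msi1 lay between 12.82 and 13.53 in the arrays labelled transgenic and between 7.20 and 7.97 in the controls, with no overlap. Its log2 fold change was 5.66 (adjusted p = 0.000818 in limma), and it passed in all 14 alternative settings. The Musashi transcript that separated the groups was thus Msi1, while the labels name MSI2, and the reason was not tested. The same control array stood apart from the other controls on the first and the second principal component. On the first, which held 73.6% of the variance, it had 21.87, against 53.62 and 53.54 in the other controls. The arrays labelled transgenic had -59.06, -22.88 and -47.09 there, so it lay nearer to them than the other controls did. On the second, which held 14.7%, it had 42.03, against -12.9 and -11.4 in the other controls. Directions are drawn between the labels throughout, and counts and calls that change without control replicate 1 are given with and without it.

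**Figure D1:**
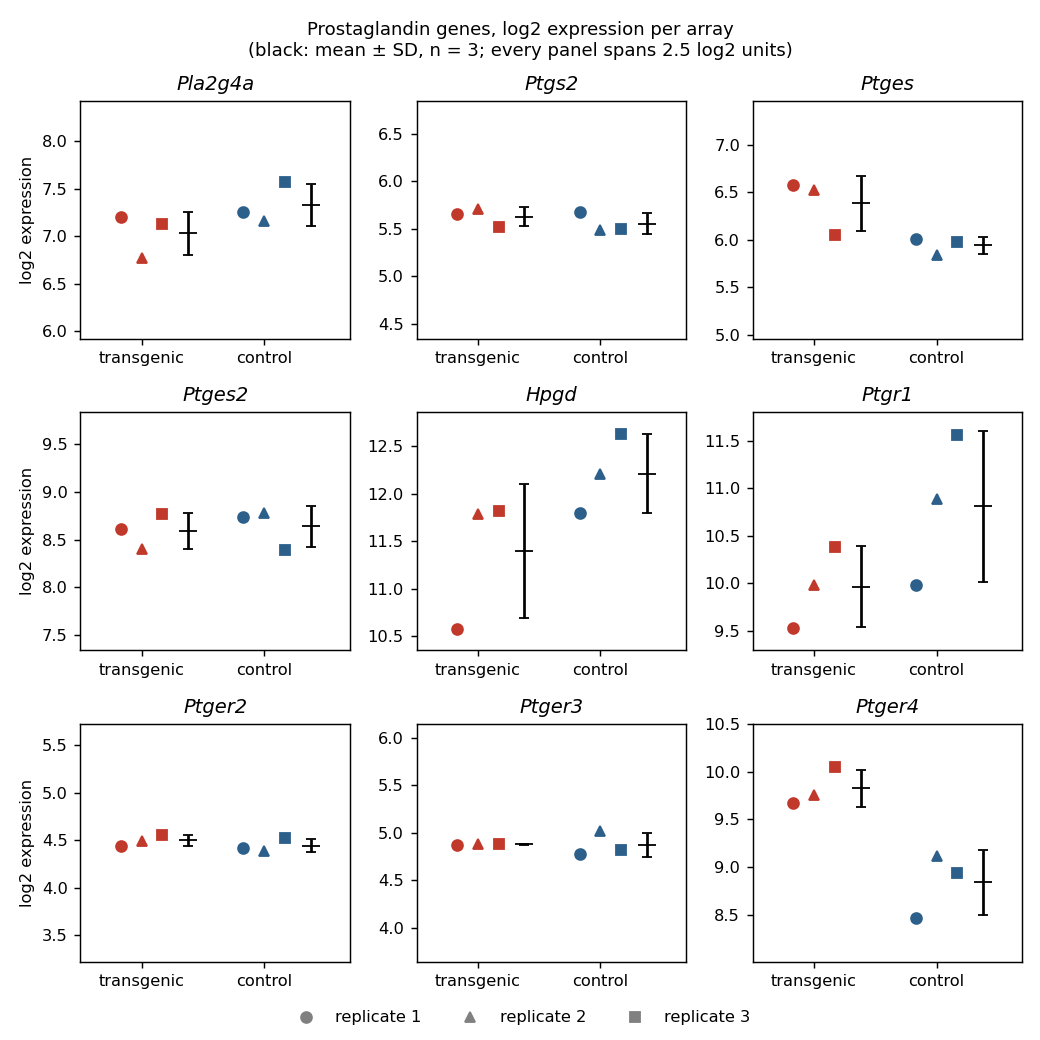
Log2 expression of the 9 prostaglandin genes (vertical axes) in 3 arrays labelled transgenic (red, left) and 3 control arrays (blue, right), with the marker shape giving the replicate number and black bars the mean ± SD. Every panel spans the same number of log2 units. The groups are apart in Ptger4 and Ptges and overlap in the other 7 genes.

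The first step, release of arachidonic acid, is represented by Pla2g4a, the calcium-dependent cytosolic phospholipase A2 that supplies the cyclooxygenases. Its values were 7.20, 6.77 and 7.12 in the arrays labelled transgenic, against 7.26, 7.16 and 7.57 in the controls. The groups overlapped, with the lowest value in transgenic replicate 2 and the highest in control replicate 3. The log2 fold change was -0.30 with a 95% interval of -0.69 to 0.09 (adjusted p = 0.26 in limma).

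Ptgs2 encodes cyclooxygenase 2, the form of the enzyme that cytokines and growth factors induce. On chromosome 1 of the RefSeq annotation it neighbours Pla2g4a, with 2 annotated genes between them, neither of which codes for protein. Its values were 5.65, 5.71 and 5.52 in the arrays labelled transgenic, against 5.68, 5.48 and 5.50 in the controls. All 6 values lay close together and the groups overlapped. The 95% interval of the log2 fold change ran from -0.15 to 0.30, which holds 0 (adjusted p = 0.658 in limma). The values lay only a little above the range of 4.07 to 5.06 that the probe sets of Xist and of 3 Y-linked genes showed in animals lacking those transcripts.

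The terminal synthases Ptges and Ptges2 behaved differently from each other. Ptges encodes microsomal prostaglandin E synthase 1, the inducible enzyme usually coupled to cyclooxygenase 2. It had 6.58, 6.52 and 6.05 in the arrays labelled transgenic, against 6.01, 5.84 and 5.97 in the controls. The groups did not overlap, although transgenic replicate 3 lay just above the highest control. Groups did not overlap in 2 of these 9 genes, both higher, beside 37% of all genes, 19.5% higher and 17.5% lower. The log2 fold change was 0.44 ± 0.15 (SE), and Ptges did not pass (adjusted p = 0.101 in limma). Without transgenic replicate 3 the log2 fold change was 0.61 and the adjusted p 0.036. Ptges2, a membrane-associated synthase found in most tissues, had 8.61, 8.40 and 8.77 in the arrays labelled transgenic, against 8.74, 8.78 and 8.39 in the controls. Each group thus had 1 low array, and the log2 fold change was -0.04 with a 95% interval of -0.40 to 0.31 (adjusted p = 0.876 in limma).

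Hpgd encodes 15-hydroxyprostaglandin dehydrogenase, which starts the inactivation of prostaglandin E2. Its values were 10.58, 11.79 and 11.82 in the arrays labelled transgenic, against 11.80, 12.20 and 12.63 in the controls. Transgenic replicate 1 was far below all other arrays, and transgenic replicate 3 lay just above control replicate 1. The log2 fold change was -0.81 ± 0.39 (SE) and did not pass (adjusted p = 0.204 in limma). In each of the 3 same-numbered pairs the transgenic array was the lower, by 1.22, 0.42 and 0.81 log2 units, and Hpgd passed once the replicate number entered the fit as a block (adjusted p = 0.0271). Without transgenic replicate 1 its log2 fold change was -0.41 (adjusted p = 0.385).

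Ptgr1 encodes prostaglandin reductase 1, which acts on the product of that dehydrogenase and also inactivates leukotriene B4. It had 9.53, 9.98 and 10.38 in the arrays labelled transgenic, against 9.98, 10.89 and 11.56 in the controls. The groups met at control replicate 1, whose value equalled that of transgenic replicate 2. The log2 fold change was -0.85 ± 0.42 (SE) and did not pass (adjusted p = 0.228 in limma). The transgenic array was again lower in all 3 pairs, and Ptgr1 passed with the replicate block (adjusted p = 0.0212), with array weights (adjusted p = 0.0469) and without control replicate 1 (adjusted p = 0.0323, log2 fold change -1.26). Without control replicate 3 its log2 fold change was -0.47 (adjusted p = 0.503). With the block, 3 of the 9 members passed, 1 higher and 2 lower, where 25.8% of all genes passed, 12.7% higher and 13.1% lower. Without control replicate 1, 2 of the 9 passed, Ptger4 higher and Ptgr1 lower, where 27.8% of all genes did, 13.4% higher and 14.4% lower. Vil1, a structural gene of the absorptive cells, was also lower in all 3 arrays labelled transgenic, at 11.70, 12.35 and 11.92 against 12.50, 12.99 and 12.88 in the controls, and its part in the values of Hpgd and Ptgr1 was not tested. Over all 10 epithelial markers the median log2 fold change was 0.01. Of these, Vil1, Cdx1 and Cdx2 fell and Cdh1 and Krt18 rose, and Krt20, a marker of mature cells, was at 0.26 (adjusted p = 0.496). Only Krt18 kept its call without control replicate 2 or 3 or transgenic replicate 3. With sex as a block or without transgenic replicate 1, only Krt18 and Cdx2 did. Vil1 thus lost its call in each of these fits.

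Ptger2 and Ptger4 encode EP2 and EP4, receptors that raise cyclic AMP through the stimulatory G protein, and Ptger3 encodes EP3, which mostly lowers it. Ptger4 had 9.68, 9.75 and 10.05 in the arrays labelled transgenic, against 8.46, 9.12 and 8.94 in the controls. Every array labelled transgenic lay above every control, and control replicate 1 was the lowest of the 6. The means were 9.83 ± 0.20 and 8.84 ± 0.34 (SD, n = 3 each). The log2 fold change was 0.99 ± 0.19 (SE) with a 95% interval of 0.52 to 1.46 (adjusted p = 0.0215 in limma). Permuting the arrays of this gene exactly, two-sided, gave p = 0.1, the smallest that 3 against 3 arrays allow.

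The call of Ptger4 depended on which arrays entered. Its log2 fold change stayed between 0.80 and 1.13 over 14 alternative settings, and it passed in 10 of them. It did not pass without control replicate 3 (adjusted p = 0.0745), without transgenic replicate 1 (adjusted p = 0.057) or without transgenic replicate 3 (adjusted p = 0.0829). It also missed the threshold in the fit blocked by sex (adjusted p = 0.0572). In that fit none of the 9 members passed, where 10.8% of all genes did, 5.36% higher and 5.47% lower. Both groups held both sexes, as Xist and Y-linked transcripts show. Among males the difference was 0.60, with 2 arrays labelled transgenic and 1 control, and among females it was 1.35, with 1 array labelled transgenic and 2 controls. Without control replicate 1 the log2 fold change was 0.80 (adjusted p = 0.0123).

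Neither of the other measured E2 receptors passed. Ptger2 had 4.44, 4.50 and 4.56 in the arrays labelled transgenic, against 4.42, 4.39 and 4.52 in the controls. Ptger3 had 4.88, 4.88 and 4.89 in the arrays labelled transgenic, against 4.77, 5.02 and 4.82 in the controls. All 12 values lay within the range that sex-linked probe sets showed in animals lacking their transcripts, so a difference in these receptors was not detectable on these arrays. Ptger1, which encodes the calcium-coupled receptor EP1 and was not on the list, had 6.20, 6.03 and 6.53 against 6.30, 6.45 and 6.37 in the controls, and did not pass (adjusted p = 0.608 in limma).

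**Figure D2:**
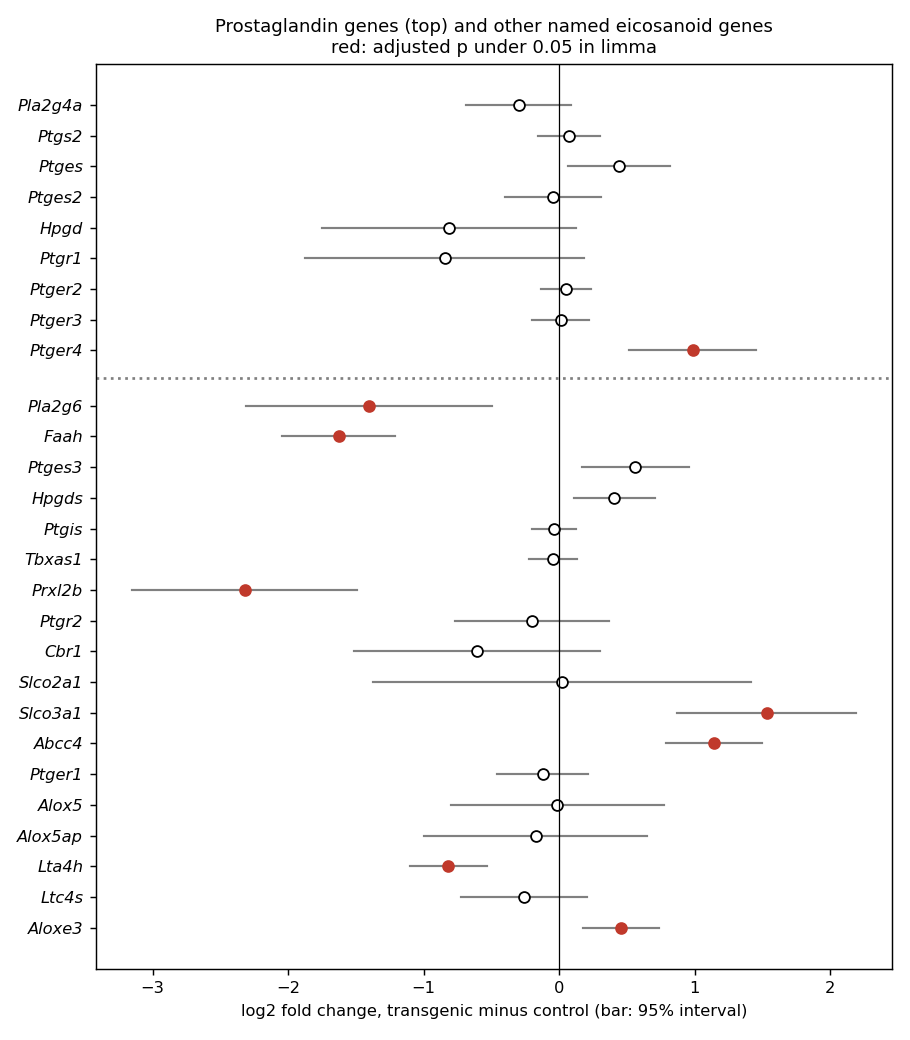
Log2 fold change, transgenic minus control (horizontal axis), of the 9 prostaglandin genes above the dotted line and of 18 other eicosanoid genes below it, with bars for the 95% interval from limma and red points for an adjusted p under 0.05. Ptger4 is the red point above the line, and below it Abcc4, Slco3a1 and Aloxe3 lie to the right of 0 and Pla2g6, Faah, Prxl2b and Lta4h to the left.

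The sequences before the starts of the receptor gene that passed and of the inducible cyclooxygenase that did not are shown because Ptgs2 is the textbook target of cyclic AMP and growth factor signals at its promoter. Both run from 250 bases before to 50 after the start annotated by RefSeq on GRCm38.p6, on the strand of the gene. Ptger4 lies on the minus strand at chr15:5244138-5244437 and Ptgs2 on the plus strand at chr1:150099781-150100080. Capitals mark matches to any of 4 motifs searched on both strands.
Ptger4: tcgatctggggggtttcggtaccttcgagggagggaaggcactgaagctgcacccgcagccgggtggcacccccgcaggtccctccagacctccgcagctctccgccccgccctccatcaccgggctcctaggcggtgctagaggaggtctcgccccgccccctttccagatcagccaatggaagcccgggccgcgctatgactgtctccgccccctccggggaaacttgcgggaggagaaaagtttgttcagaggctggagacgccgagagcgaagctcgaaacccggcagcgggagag
Ptgs2: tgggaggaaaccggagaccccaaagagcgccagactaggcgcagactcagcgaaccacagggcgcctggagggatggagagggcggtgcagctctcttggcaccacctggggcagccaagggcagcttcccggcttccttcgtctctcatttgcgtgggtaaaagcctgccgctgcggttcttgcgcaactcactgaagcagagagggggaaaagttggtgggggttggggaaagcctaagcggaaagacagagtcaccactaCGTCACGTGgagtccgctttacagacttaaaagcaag

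The motifs were TGACG, the core of the cyclic AMP response element, TGANTCA for AP-1, CACGTG, the E-box, and TATAAA, the TATA box. The capitals in Ptgs2 are a TGACG on the minus strand, at positions 14 to 18 after the annotated start, which overlaps an E-box at positions 17 to 22. In Ptger4 none of the 4 was found in this window. Over all 32851 RefSeq windows of this length, 20.8% held TGACG, 7.81% TGANTCA, 7.15% CACGTG and 13.6% TATAAA. A match describes the letters of the window and is not evidence of binding.

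The wider eicosanoid pathway was read from 5 further lists with 52 measured genes, of which 3 rose and 4 fell (13.5%, beside 18.6% of all genes). Their median log2 fold change was -0.01, and that of all genes was 0.02. With the replicate block 8 rose and 7 fell (15 of 52, beside 25.8% of all genes). Without control replicate 1 the counts were 6 and 10 (16 of 52, beside 27.8% of all genes).

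The list of other prostaglandin breakdown and transport had 5 measured genes, of which 2 rose and none fell (40%, beside 18.6% of all genes). Among all genes 8.97% were higher. These 2, both transport genes, were among the 3 eicosanoid genes that rose. Abcc4, the efflux pump MRP4 that can carry prostaglandin E2 out of cells, had 8.06, 7.74 and 7.70 in the arrays labelled transgenic, against 6.84, 6.46 and 6.77 in the controls. Its groups were well apart, with a log2 fold change of 1.15 ± 0.15 (SE, adjusted p = 0.00713 in limma), and it passed in all 14 alternatives. Slco3a1, an organic anion transporter able to carry prostaglandins, had 10.23, 9.41 and 9.80 in the arrays labelled transgenic, against 8.73, 8.04 and 8.06 in the controls. It rose by 1.53 ± 0.27 (SE, adjusted p = 0.0169), and lost its call without control replicate 2, control replicate 3 or transgenic replicate 3 (adjusted p = 0.071, 0.0732 and 0.0716). The uptake carrier Slco2a1, which brings prostaglandins to the dehydrogenase, had 9.46, 10.75 and 10.50 in the arrays labelled transgenic, against 9.03, 10.75 and 10.86 in the controls. Replicate 1 was the low array in both groups, and the log2 fold change of Slco2a1 was 0.02 with an interval of -1.37 to 1.42. Of the other breakdown enzymes of this list, Ptgr2, a second prostaglandin reductase, had a log2 fold change of -0.20 (adjusted p = 0.62, and 0.0254 without control replicate 1). Cbr1, a carbonyl reductase that converts prostaglandin E2, had -0.61 (adjusted p = 0.329, and 0.0487 with the replicate block).

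Among 7 other prostanoid synthases 1 fell and none rose (14.3%, beside 18.6% of all genes). Prxl2b, which makes prostaglandin F2alpha and its amide form, had 6.45, 7.40 and 6.34 in the arrays labelled transgenic, against 8.56, 9.30 and 9.30 in the controls. The groups were more than 1 log2 unit apart, and the log2 fold change was -2.32 ± 0.34 (SE, adjusted p = 0.0104). It just missed the threshold without control replicate 2 or 3 (adjusted p = 0.0515 and 0.0529). Ptges3, the p23 cochaperone that also has prostaglandin E synthase activity, had 12.19, 11.95 and 12.11 in the arrays labelled transgenic, against 11.84, 11.48 and 11.25 in the controls. Its groups did not overlap, but it did not pass (log2 fold change 0.56, adjusted p = 0.0617), while it did with the replicate block (adjusted p = 0.0339) and without control replicate 1 (adjusted p = 0.0104). Hpgds, the prostaglandin D synthase of mast and tuft cells, was at 0.41 (adjusted p = 0.0693, and 0.0494 with the block, and 0.0317 without transgenic replicate 2). Ptgis, the prostacyclin synthase, and Tbxas1, the thromboxane synthase, were at -0.04 each (adjusted p = 0.746 and 0.742).

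Of 19 other genes of phospholipase A2 and arachidonate release, 2 fell and none rose (10.5%, beside 18.6% of all genes). With the replicate block there were 7 calls, where 25.8% of all genes passed. Those were Pla2g2f, Pla2g12a and Plaa, all higher, and Pla2g6, Pla2g10, Faah and Lpcat3, all lower. Without control replicate 1 the list had 8 calls, 3 higher and 5 lower, where 27.8% of all genes passed. Those added were Plaa, an activator of phospholipase A2, at 1.22 (adjusted p = 0.00238), Acsl4, which couples arachidonic acid to coenzyme A, at 0.73 (adjusted p = 0.0129), and Pla2g12a, a secreted phospholipase A2, at 0.49 (adjusted p = 0.0399), all higher, and Pla2g10, Lpcat3 and Pla2g4c, all lower. Faah, which splits the endocannabinoid anandamide and so frees arachidonic acid, had 8.84, 9.44 and 9.14 in the arrays labelled transgenic, against 10.71, 10.96 and 10.63 in the controls. The groups were clearly apart, with a log2 fold change of -1.63 ± 0.17 (SE, adjusted p = 0.00463), and Faah passed in all 14 alternatives. Pla2g6, a calcium-independent phospholipase A2, was at -1.40 ± 0.37 (adjusted p = 0.0489). It lost its call in 7 of 14 alternatives, among them those without control replicate 2 or 3 and without transgenic replicate 1 or 3 (adjusted p = 0.155, 0.158, 0.148 and 0.156).

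In the lipoxygenase branch, which makes leukotrienes from the same arachidonic acid, 1 of 15 genes fell and 1 rose (13.3%, beside 18.6% of all genes). Lta4h, the hydrolase that makes leukotriene B4, had 10.39, 10.44 and 10.06 in the arrays labelled transgenic, against 11.15, 11.11 and 11.07 in the controls. The controls were nearly equal, and the log2 fold change of -0.82 ± 0.12 (SE, adjusted p = 0.0094) passed in all 14 alternatives. Aloxe3, a hydroperoxide isomerase known from skin, rose by 0.46 ± 0.11 (adjusted p = 0.0419), but did not pass in any of the 6 fits with 1 array left out (adjusted p between 0.0595 and 0.14). Its signal was dim, at 5.57, 5.79 and 5.77 in the arrays labelled transgenic, against 5.22, 5.44 and 5.11 in the controls. The control values lay only a little above the range of 4.07 to 5.06 of absent transcripts. Alox5, Alox5ap and Ltc4s, which act before and beside Lta4h and are known markers of tuft cells, had log2 fold changes of -0.01, -0.17 and -0.26 and did not pass (adjusted p = 0.985, 0.784 and 0.417). Without control replicate 1, Ltc4s passed with a log2 fold change of -0.45 (adjusted p = 0.0449). None of the 6 other prostanoid receptor genes passed in limma with all 6 arrays, and none had an unadjusted p under 0.05. Ptgdr, the prostaglandin D2 receptor DP1, had a log2 fold change of -0.37 (adjusted p = 0.245) and passed without control replicate 1, at -0.58 (adjusted p = 0.0162), and with array weights.

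**Figure D3:**
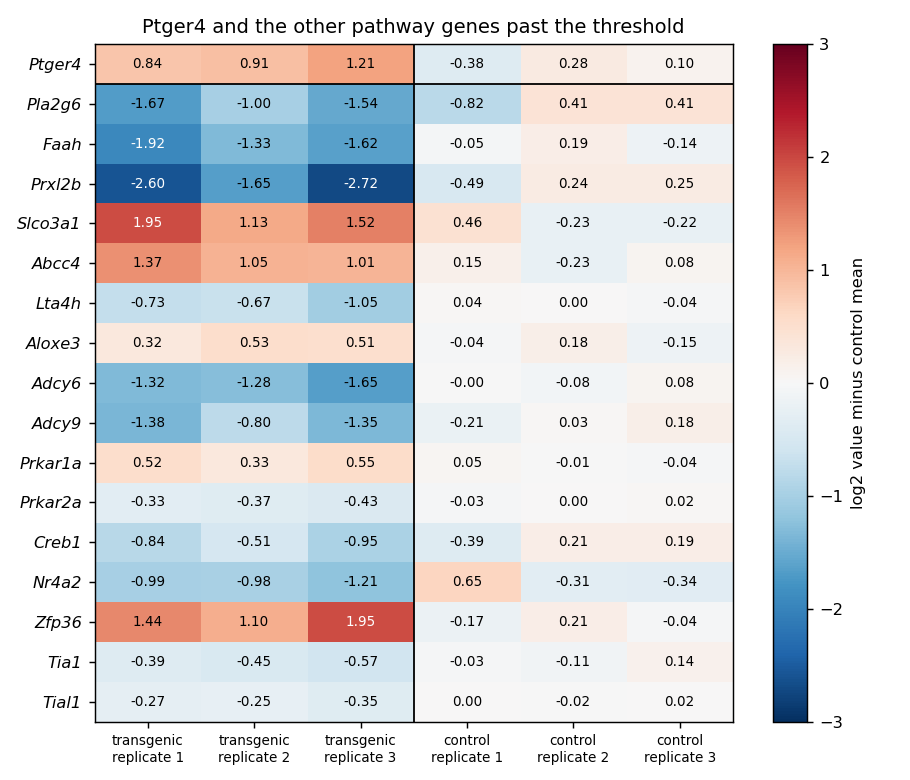
Log2 value minus the control mean (colour and printed number) in each of 3 arrays labelled transgenic (left) and 3 control arrays (right), for Ptger4 above the line and, below it, the 16 genes of the eicosanoid, cyclic AMP and RNA-binding lists with an adjusted p under 0.05. Each gene has the same sign in all 3 arrays labelled transgenic, and control replicate 1 departs most from the other controls in Pla2g6 and Nr4a2.

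EP4 acts through the stimulatory G protein, adenylyl cyclase and protein kinase A. Of 15 measured genes of this route, 1 rose and 5 fell (40%, beside 18.6% of all genes, with a median log2 fold change of -0.02). Without control replicate 1, Nr4a1 was added among the higher (7 of 15, beside 27.8% of all genes). With the replicate block, Crem and Sik1 were added among the higher (8 of 15, beside 25.8%). Adcy6, an adenylyl cyclase, had 9.11, 9.15 and 8.78 in the arrays labelled transgenic, against 10.43, 10.35 and 10.52 in the controls. The groups were more than 1 log2 unit apart, and the log2 fold change of -1.42 ± 0.12 (SE, adjusted p = 0.0026) passed in all 14 alternatives. A second cyclase, Adcy9, fell by 1.18 ± 0.19 (adjusted p = 0.0129), and lost its call without control replicate 2 or 3 or transgenic replicate 3 (adjusted p = 0.059, 0.0595 and 0.0582). Prkar1a, a regulatory subunit of protein kinase A, rose by 0.46 (adjusted p = 0.0197), and Prkar2a, another, fell by 0.38 (adjusted p = 0.0186). Creb1, the transcription factor that the kinase activates, had a log2 fold change of -0.76 (adjusted p = 0.0476), and Nr4a2, a nuclear receptor gene that cyclic AMP induces, had -1.06 (adjusted p = 0.0464). These 4 genes lost their call without control replicate 2 or 3 or transgenic replicate 1 or 3, with adjusted p values up to 0.0811, 0.0779, 0.156 and 0.154 in the order named, and Nr4a2 also without transgenic replicate 2 (adjusted p = 0.078). Nr4a2 was highest in control replicate 1, at 8.41 against 7.45 and 7.42 in the other controls. Sik1 and Crem had log2 fold changes of 0.68 and 0.58 and did not pass (adjusted p = 0.0518 and 0.0711 in limma). Groups did not overlap in 3 higher genes of this list, Prkar1a, Sik1 and Crem, and in 6 lower ones, beside 19.5% and 17.5% of all genes.

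The messenger RNA of Ptgs2 carries AU-rich elements, and 10 genes for proteins that bind them were measured. Of these, 1 rose and 2 fell (30%, beside 18.6% of all genes). Without control replicate 1, where 27.8% of all genes passed, 2 rose and 3 fell, with Rbm3 added among the higher and Zfp36l1 among the lower. Zfp36, which encodes tristetraprolin, a protein that speeds the decay of such messages, had 11.55, 11.20 and 12.05 in the arrays labelled transgenic, against 9.94, 10.31 and 10.06 in the controls. The groups did not overlap, with a log2 fold change of 1.5 ± 0.23 (SE, adjusted p = 0.0112, and 0.0555 without control replicate 3). The translational silencers Tia1 and Tial1 fell by 0.47 (adjusted p = 0.0243) and 0.29 (adjusted p = 0.0365). Tial1 did not pass with the replicate block (adjusted p = 0.0653). Tia1 lost its call without control replicate 2 or 3 or transgenic replicate 1 or 3 (adjusted p up to 0.0908), and Tial1 in all 6 fits with an array left out except that without control replicate 1 (adjusted p up to 0.124).

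Prostaglandin genes are also used by other cells that such a preparation can hold. The marker counts below stand beside 18.6% of all genes with all 6 arrays, 8.97% higher and 9.65% lower. The share of all genes was 27.8% without control replicate 1 and 25.8% with the replicate block. Tuft cells, which contain cyclooxygenase 1 and leukotriene enzymes, were represented by 11 markers, none of which passed in limma or had an unadjusted p under 0.05, with summed linear signals of 765 to 1543 in the arrays labelled transgenic and 970 to 1912 in the controls. T cell and intraepithelial lymphocyte markers, from cells that express Ptger4 as well, fell in 8 of 9 cases and rose in none, with summed signals of 839 to 1995 against 4621 to 7425 in the controls. That count was 2 without control replicate 2 or transgenic replicate 3, where 976 and 1074 of all genes passed. It was 3 without control replicate 3 (952 of all genes). With sex as a block or without transgenic replicate 1 it was 6 (2159 and 1370 of all genes). Of 8 macrophage markers 1 rose (2 without control replicate 1 or with the replicate block), the mannose receptor Mrc1 at 1.03 (adjusted p = 0.00541). All 8 had higher means, with summed signals of 452 to 524 against 336 to 433 in the controls. These signals were dim, and Mrc1 had 5.27, 5.10 and 5.24 in the controls, near the range of 4.07 to 5.06 of absent transcripts. Only 1 of these 8 markers, and none of the 8 neutrophil markers, had a mean log2 value of at least 6. The part of lymphocytes and macrophages in the value of Ptger4 was not tested. Of 8 neutrophil markers 1 rose (2 without that array), of 9 mast cell markers 1 fell (3 without control replicate 1), of 6 endothelial markers 1 rose, and of 10 fibroblast and smooth muscle markers none passed and 1 had an unadjusted p under 0.05 (1 passed as higher without control replicate 1). Among 10 epithelial markers 2 rose and 3 fell, while 1 rose and 3 fell with the replicate block, where Cdh1 lost its call. Epcam, which defines the epithelium and was picked here after its values were seen, lay between 12.60 and 12.87 on all 6 arrays.

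By their pattern over the 6 arrays, the genes most like Ptger4 were Emp1, an epithelial membrane protein gene, with a Pearson correlation of 0.996, Ypel5 with 0.994 and Gm5617 with 0.994, among 4337 genes whose values spanned at least 1 log2 unit. These correlations describe 6 points that fall into 2 groups.

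**Figure D4:**
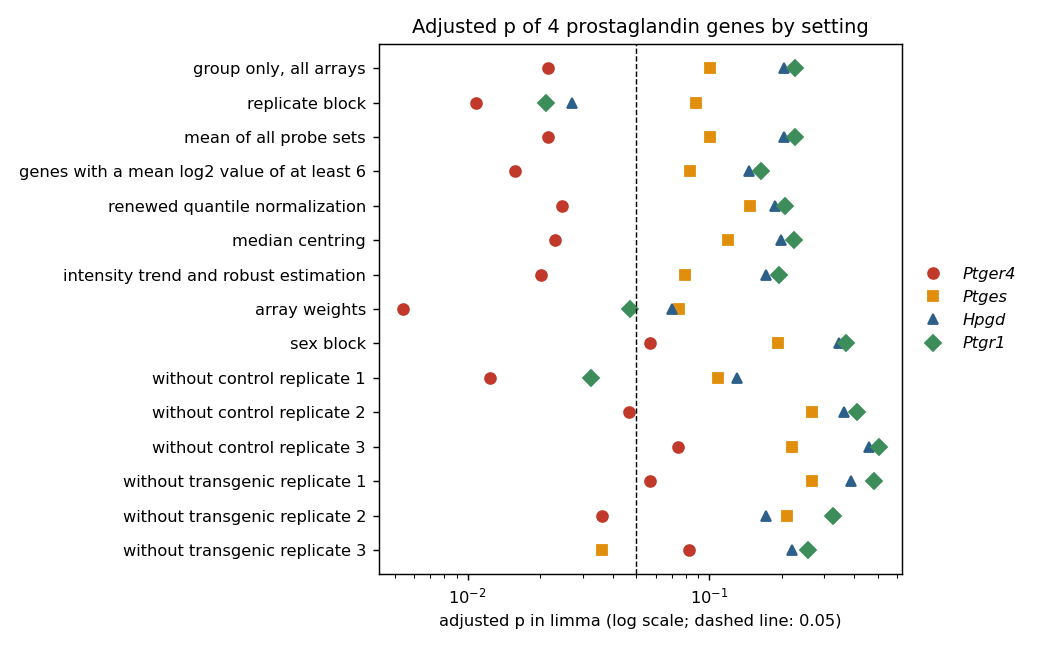
Adjusted p in limma (horizontal axis, log scale) of Ptger4, Ptges, Hpgd and Ptgr1 under the fit with group as the only term and under 14 alternative settings (rows), with a dashed line at 0.05. Ptger4 lies left of the line in the fit with group only and in 10 alternatives, Ptgr1 in 3, and Ptges and Hpgd in 1 each.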

How the data were processed

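Expression was measured in 6 jejunal epithelial samples, 3 labelled transgenic and 3 control, on 1 array each. The log2 expression values per probe set were deposited by the authors, and the submitters' processing notes name Partek and RMA without versions. RMA removes global shifts in RNA amount and compresses changes of dim probe sets. Of 28350 probe sets, 21780 named 1 gene; symbols were updated with a RefSeq table of GRCm38.p6, and each of 19933 genes was represented by its brightest 1-gene probe set. The group difference was tested by limma 3.58.1 under R 4.3.3 (lmFit and eBayes, two-sided, Benjamini-Hochberg over all genes, threshold 0.05), checked on simulated data. The number of arrays limits the precision. Deviations from the group means correlated by 0.522, 0.413 and 0.13 in same-numbered pairs and by -0.442 to 0.318 in differently numbered ones, the highest being transgenic 2 with control 3, above the third same-numbered pair. A fit with the replicate number as a block is given where it changes a call in the lists. The pairing is thus weakly borne out, such deviations sum to 0 within a group and no label says what a number shares.

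All 10 listed genes, the passing genes of the pathway lists and 12 further pathway genes are named by rule. The members and lists were chosen with earlier results of these data known. Genes of the lists without a probe set naming them alone were not analysed here. Alternatives were the block, the mean of probe sets, array weights, sex as a block, median centring, a filter on the mean of 6, robust estimation with an intensity trend, a renewed quantile normalization and each array left out.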

Additional observations from a re-analysis of the deposited data

How the results depend on the processing

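The count of all genes past the threshold, 3710, was 5139 with the replicate block and 7072 with array weights. It was 2159 with sex as a block and between 952 and 5542 with 1 array left out. Of the 9 prostaglandin genes, 1 passed in the fit with group only, 3 with the replicate block, 2 with array weights and none with sex as a block (limma, where 2 of the 9 had an unadjusted p under 0.05 in the fit with group only), and between 0 and 2 with 1 array left out. Of the other 52 eicosanoid genes, 7 passed with group only, 15 with the replicate block, 18 with array weights, and between 3 and 16 with 1 array left out. A fit with fewer arrays has less power, and the cause of the other changes was not tested. Genes whose log2 fold change turned its sign had not passed in any fit. Ptges2 was at 0.036 with array weights and between -0.17 and 0.053 with 1 array left out. Ptger3 was at -0.032 with renewed quantile normalization, -0.029 with array weights, -0.0041 with median centring, -0.024 with sex as a block and between -0.037 and 0.085 with 1 array left out. Slco2a1 was at -0.0092 with renewed quantile normalization, -0.48 with array weights, -0.045 with sex as a block and between -0.57 and 0.41 with 1 array left out. Alox5 was at 0.0085 with renewed quantile normalization and 0.0038 with sex as a block, and between -0.29 and 0.23 with 1 array left out, and Alox5ap between -0.48 and 0.15. With sex as a block Pla2g6, Aloxe3, Creb1, Nr4a2, Tia1 and Tial1 lost their calls (adjusted p between 0.0556 and 0.105 in limma), and with the intensity trend Prkar2a, Tia1 and Tial1 did (0.0674, 0.051 and 0.147). Members with a mean under 6 were not tested with the filter.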

Other observations

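Pla2g4c, which encodes a membrane-bound cytosolic phospholipase A2 and was chosen after its values were seen, split the controls. It had 6.11, 6.11 and 5.59 in the arrays labelled transgenic, against 6.10, 11.10 and 9.91 in the controls. Control replicate 1 read like the arrays labelled transgenic, and the other 2 controls were far above all of them. The log2 fold change was -3.10 ± 1.22 (SE) and did not pass (adjusted p = 0.136 in limma), while without control replicate 1 it was -4.57 (adjusted p = 0.00235). In Msi2 the same control array also lay with the arrays labelled transgenic, and in Msi1 with the controls.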
